A study of Mus musculus with 6 samples.

Results

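Transcripts whose names record where they were found rather than what they do were set apart in a table of genes recovered with METTL3 from natural killer (NK) cells. They were chosen by name alone, and they made up 170 of the 2652 listed genes (6.41%). There were 120 RIKEN transcripts with a name ending in Rik, 12 opposite-strand transcripts with a name ending in os, 2 host genes of small RNAs (Mir17hg and Snhg4) and 36 clone-named transcripts with a name starting RP23 or RP24. No name matched the os ending by chance, as all 12 opposite-strand members were annotated as antisense transcripts. All 6 libraries came from splenic NK cells of wild-type C57BL/6 mice, and both groups therefore share strain, tissue, genotype and treatment. Per the methods of the study, the cells had been expanded in the mice with the plasmid pLIVE-IL-15, given by hydrodynamic injection, collected a month later and sorted, so the data describe IL-15-expanded and not resting cells. The METTL3-RIP group (n = 3) is RNA brought down from the lysate by an anti-METTL3 antibody, and the input group (n = 3) is RNA of the lysate portion kept aside. Replicates carry only numbers, so p-values measure the spread between these libraries, which may be technical, and no mock immunoprecipitation was analysed here.

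METTL3 is the methyltransferase that writes N6-methyladenosine (m6A) into RNA, mostly within messenger RNAs but also on long noncoding RNAs. A Rik name is a placeholder from the RIKEN collection of full-length mouse cDNA clones, and it can stand for a protein-coding gene, a spliced noncoding RNA or an unspliced fragment of a larger transcript. An os name is given to a noncoding RNA read from the strand opposite a known gene, which is then called its sense gene. Host genes carry microRNAs or small nucleolar RNAs within their introns or exons, and the long transcript is cut or spliced to release them. RP23 and RP24 are libraries of bacterial artificial chromosomes of the mouse genome, and genes annotated by hand on such a clone kept the name of the clone until a symbol was given.

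Values are RPKM, reads scaled by exon length and by the library total. The totals recovered from them were 9401509 to 11809744 reads for METTL3-RIP and 14710607 to 15992386 for input. The table holds only genes with higher values in METTL3-RIP. The lowest ratio of mean RPKM (METTL3-RIP over input) of any gene with an input read was 9.14, so a direction or a count of members that were higher describes how the table was made. None of 12 NK cell, 6 T cell, 5 B cell, 6 myeloid and 4 erythroid marker genes was listed, and the cell type could not be checked from these values.

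All 170 members were higher in METTL3-RIP at an adjusted p under 0.05 (limma on log2(RPKM + 1), Benjamini-Hochberg adjustment over the 2652 genes), against 99.9% of all listed genes. In all 170 the lowest METTL3-RIP library lay above the highest input library, against 99.8% of listed genes. A fit of recovered reads (limma voom) also called all 170, against 100% of listed genes. The shares are those of the whole table and set the members apart in no way.

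The members were thinly covered. A level in bulk RNA cannot tell the number of cells with a transcript from the amount in each cell, while the comparison of METTL3-RIP with input is made between portions of lysate. Their median level was 2.05 RPKM in METTL3-RIP and 0.0984 RPKM in input, against 3.04 and 0.190 RPKM over all listed genes. Summed over 3 libraries, the median member held 136.5 METTL3-RIP reads and 10 input reads, against 360 and 38 over all listed genes. Between METTL3-RIP libraries the median coefficient of variation of a member was 20.02%, against 15.5% over all listed genes. Together the members took 0.264% ± 0.0169 (SD, n = 3) of METTL3-RIP reads. In input their share was 0.0158% ± 0.000506 (SD, n = 3). That 16.7-fold difference stood beside a 15.1-fold difference for the whole table.

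**Figure D1:**
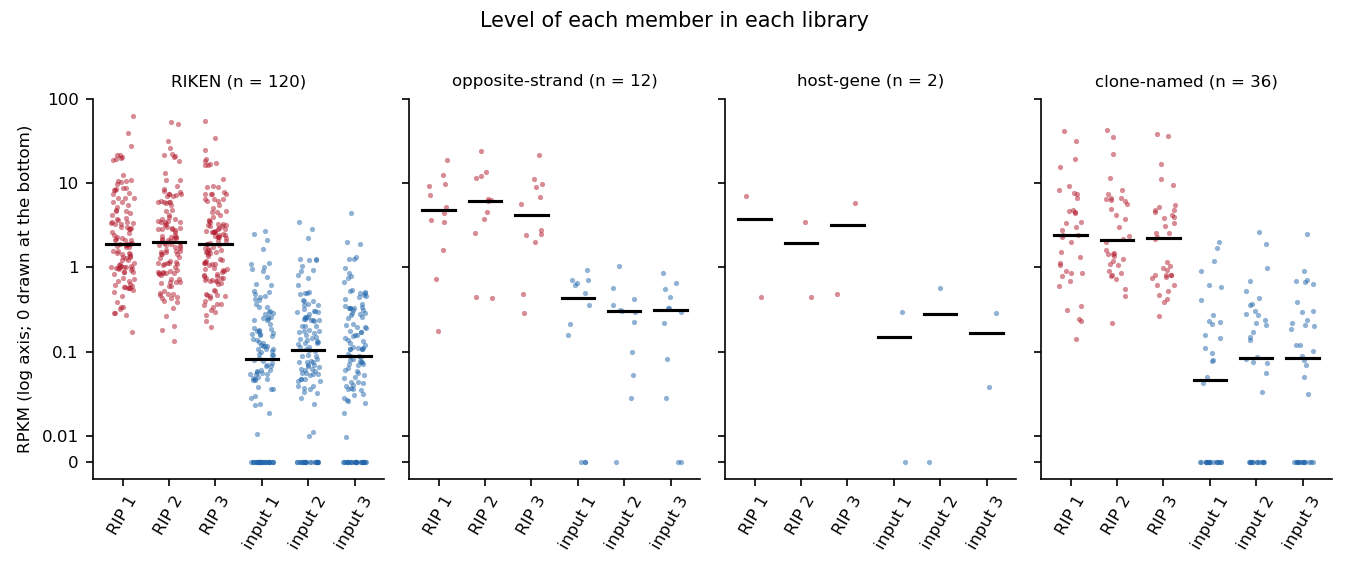
RPKM of each member (points) in each of the 3 METTL3-RIP (red) and 3 input (blue) libraries, by name class, on a log axis with values of 0 drawn at the bottom and the class median as a black line. RIKEN medians were 1.88, 1.99 and 1.87 RPKM in METTL3-RIP and 0.0816, 0.104 and 0.0894 RPKM in input, and values of 0 occurred in input libraries only.

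Whether the members rose more or less than other genes depended on the scale. On the log2(RPKM + 1) scale, on which low-level genes show less of their change, the median log2 fold change was 1.44 for the members and 1.72 for all listed genes. A log2 fold change of at least 1 was reached by 116 of 170 members (68.2%), against 75.0% of all listed genes. As a ratio of mean RPKM, which has no pseudocount, the order turned, with a median of 18.2 for the 154 members with an input read and 14.4 for 2487 listed genes with one. With members that had no input read set at their lower bound, the medians were 16.7 and 13.8. Fitted reads gave the same order as the ratio, with median log2 fold changes of 4.29 and 3.89. The part of the low input reads of the members in this difference was not tested.

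By class, the opposite-strand transcripts had the highest median log2 fold change, 2.07, followed by 1.49 for clone-named, 1.37 for RIKEN and 1.35 for the 2 host-gene transcripts. The same order held for levels in METTL3-RIP among the 3 larger classes, at 4.93 RPKM for opposite-strand, 2.30 for clone-named and 1.93 for RIKEN transcripts. This order turned on other scales. Fitted reads gave opposite-strand transcripts the lowest median log2 fold change, 4.14, against 4.25 for RIKEN, 4.35 for host-gene and 4.502 for clone-named transcripts. Among members with no shared exon base, the opposite-strand and RIKEN medians were both 1.26 on the log2(RPKM + 1) scale. That opposite-strand median rests on only 2 transcripts, beside 60 RIKEN transcripts, and says little about the class. Median ratios of mean RPKM were 19.9 for opposite-strand transcripts, 20.5 for the 28 clone-named and 17.9 for the 112 RIKEN transcripts with an input read. With members that had no input read at their lower bound, the medians were 19.9, 16.96 and 16.6. A log2 fold change of at least 1 was reached by 10 of 12 opposite-strand (83.3%), 82 of 120 RIKEN (68.3%) and 23 of 36 clone-named transcripts (63.9%). When each library was centred on the median of the listed genes, which moves the median over all genes from 1.72 to -0.04, the class medians became 0.31 for opposite-strand, -0.27 for clone-named and -0.39 for RIKEN transcripts.

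RIKEN names covered very different kinds of RNA. Of the 120, 118 could be placed, A930011G23Rik in RefSeq only and the others in GENCODE M21. Of these, 34 are protein-coding, 33 belong to TEC (a class for mostly unspliced transcripts that still await experimental proof), 24 are antisense, 14 are processed transcripts and 7 are lincRNAs. The symbols C030013D06Rik and 9230112E08Rik had no match. RefSeq gives another symbol for 15 RIKEN names, among them Arhgef18 for A430078G23Rik, Dennd11 for E330009J07Rik and Mrnip for 3010026O09Rik. For 4732487G21Rik and 4930500M09Rik that symbol is the gene on the other strand (Gpatch2l and Uhmk1), so they are not the same transcript. The 13 names that begin with 1700 come from a RIKEN library made from testis, so the name records where a cDNA was cloned and not where the transcript is active.

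Split by kind, protein-coding RIKEN genes had a median ratio of 13.8 (32 of 34 with an input read), beside 13.1 for 1846 other listed protein-coding genes and 19.9 for 78 of the 84 noncoding RIKEN transcripts. On the log2(RPKM + 1) scale the order was the reverse, with medians of 1.68 for coding and 1.35 for noncoding RIKEN members. Input reads differed in the same way, with a median of 32 reads summed over 3 libraries for coding and 9.5 for noncoding RIKEN members. Their part in the difference was not tested. Among the RIKEN kinds with at least 7 members, TEC transcripts had the highest median ratio, 23.9 in 32 of 33 members, and 168 TEC genes with other names had 22.2.

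**Figure D2:**
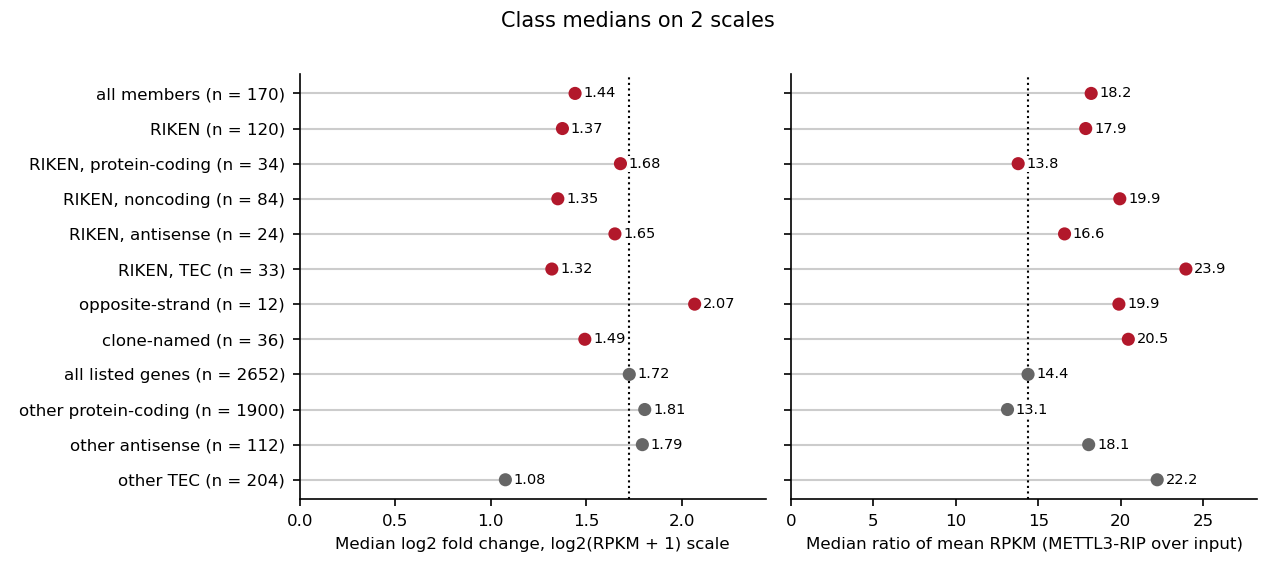
Median log2 fold change on the log2(RPKM + 1) scale (left) and median ratio of mean RPKM among genes with an input read (right), for the members and their kinds (red) and for other listed genes (grey), with n of the whole group beside each name and a dotted line at the median of all listed genes. Noncoding RIKEN transcripts lie left of the line at 1.35 and right of it at 19.9, while protein-coding RIKEN genes lie close to it on both scales, at 1.68 and 13.8.

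The most abundant RIKEN member was A130071D04Rik, a TEC transcript without introns of 5864 nt (GRCm38 chr1:138161820-138167683, minus strand). It lies inside Ptprc, the gene of the leukocyte surface phosphatase CD45, on the same strand and in an intron, as none of its exon bases is shared. It had 61.7, 52.3 and 54.7 RPKM in METTL3-RIP replicates 1, 2 and 3 and 2.51, 3.49 and 4.44 RPKM in input. The groups were far apart, and the log2 fold change was 3.70 (SE 0.177, limma adjusted p = 2.36e-07). Ptprc itself is not a listed gene. Reads of this transcript, and of the same-strand intronic transcripts below, cannot be told apart from reads of unspliced RNA of the surrounding gene. Their values may therefore not be those of separate transcripts.

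A130048G24Rik, another unspliced TEC transcript (chr1:54913845-54916594, minus strand, 2750 nt), lies in an intron of Ankrd44, which encodes a regulatory subunit of a protein phosphatase. Its values were 27.5, 26.3 and 24.7 RPKM in METTL3-RIP and 0.764, 1.23 and 1.31 RPKM in input, with a log2 fold change of 3.70 (SE 0.130, limma adjusted p = 1.37e-07). Ankrd44 had 16.0, 15.9 and 16.6 RPKM in METTL3-RIP and 1.46, 1.42 and 1.49 RPKM in input. Relative to Ankrd44, the intronic transcript stood at 1.49 to 1.72 in METTL3-RIP and at 0.522 to 0.878 in input, and the ranges did not overlap.

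A630081D01Rik (chr1:80747222-80749054, minus strand, 1833 nt) lies in an intron of Dock10. It was measured at 21.6, 18.0 and 18.99 RPKM in METTL3-RIP and at 0.107, 0.478 and 0.668 RPKM in input, where it held 3, 14 and 18 reads. The ratio of means was 46.8, beside 10.9 for Dock10. Its log2 fold change of 3.87 (SE 0.163, limma adjusted p = 1.56e-07) was the highest of the RIKEN class.

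5330406M23Rik (chr6:31108827-31110920, minus strand, 2094 nt) had the highest ratio, 52.8, among RIKEN members with a read in every input library. It lies in an intron of Lncpint, a long noncoding RNA induced by p53. METTL3-RIP libraries gave 6.71, 7.25 and 6.11 RPKM and input libraries 0.125, 0.0597 and 0.195 RPKM, the latter from 4, 2 and 6 reads. Lncpint had a ratio of 26.3, and the level of the intronic transcript relative to Lncpint was 0.349 to 0.444 in METTL3-RIP and 0.102 to 0.273 in input.

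Position inside a gene on the same strand was common among TEC members. Of 33, 26 lay inside a protein-coding gene on their own strand, and 8 of these genes were listed (30.8%). In all 8 pairs the ratio of the member exceeded that of the gene around it, with medians of 36.0 and 11.2. Outside the members, median ratios were 22.2 for 168 listed TEC genes and 13.1 for 1846 listed protein-coding genes. A larger ratio in TEC transcripts is thus not particular to these pairs, and a part of position was not tested. In 4 of the 8, the level of the member relative to the gene was higher in every METTL3-RIP library than in every input library, and in the other 4 the libraries overlapped. The pairs whose libraries did not overlap, chosen after their values were seen, were 4930594C11Rik in Mgat4a, C130083A15Rik in Chd2, A130048G24Rik in Ankrd44 and A630081D01Rik in Dock10. Of the exon bases of 4930594C11Rik, 51.3% are shared with Gm43213, a listed pseudogene on the same strand, which limits its value. Few input reads lie behind these ratios, with a median of 8 reads summed over 3 libraries for TEC members.

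6030400A10Rik, a TEC transcript inside Cpeb2 (chr5:43265157-43266368, plus strand), varied most of the RIKEN members between METTL3-RIP libraries. It had 1.23, 0.858 and 2.65 RPKM in METTL3-RIP, a coefficient of variation of 60.01%, and 0.108, 0 and 0 RPKM in input. Replicate 3 was high, and Cpeb2 was lowest in that library at 0.845 RPKM. The log2 fold change was 1.26 (SE 0.224, limma adjusted p = 6.56e-04).

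Antisense RIKEN transcripts formed a second group. A630072L19Rik (chr12:100941742-100949875, plus strand, 6 exons) runs against Ccdc88c, which encodes a regulator of Wnt signalling, and 10.1% of its exon bases are shared with the other strand. Its level was 39.5, 50.7 and 34.2 RPKM in METTL3-RIP and 2.08, 2.88 and 2.02 RPKM in input, with a log2 fold change of 3.67 (SE 0.175, limma adjusted p = 2.33e-07). Ccdc88c had 116, 145 and 107 RPKM in METTL3-RIP, with replicate 2 highest as in the antisense transcript, and its ratio of 23.9 was above the 17.8 of A630072L19Rik. Relative to Ccdc88c the antisense transcript was lower in every METTL3-RIP library (0.319 to 0.350) than in every input library (0.385 to 0.506). The library kit keeps strand, but whether strand was used in counting is not stated, so reads of a gene and of its antisense partner cannot be told apart where exons overlap.

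All 24 antisense RIKEN members overlapped a protein-coding gene on the other strand, and for 13 of them (54.2%) that gene was listed. Of all annotated protein-coding genes, whatever their level in these cells, 8.81% were listed (1934 of 21951). Of the 24 antisense members, 17 shared more than 10% of their exon bases with the other strand. The shares of 54.2% and 8.81% are thus no test of enrichment, and the part of shared reads was not tested. Among 12 such pairs with an input read in the member, the ratio of the antisense transcript was the larger in 7, with medians of 15.6 and 12.1. Pairs at both ends, picked with their values known, are given. The ratio of the antisense transcript was far larger for 1700113A16Rik against Mef2d, a transcription factor gene, with 87.5 and 12.7. It was also larger for 4930403D09Rik against Dock2, with 29.6 and 15.5. Few input reads lie behind both, 0, 2 and 0 for 1700113A16Rik and 4, 4 and 0 for 4930403D09Rik. The level of 4930403D09Rik relative to Dock2 overlapped between METTL3-RIP and input libraries. In METTL3-RIP both transcripts stood well below their gene, at 0.180 of Mef2d and 0.110 of Dock2. The ratio of the antisense transcript was lower for 1700094J05Rik against Pcnt, a centrosome scaffold, with 18.97 and 20.4. So it was for 1700110K17Rik against Gramd1b, with 10.2 and 12.5.

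Examples of protein-coding RIKEN genes were also chosen after their values were seen. 4932438A13Rik, which encodes a very large lipid transfer protein, had 7.40, 7.48 and 7.41 RPKM in METTL3-RIP and 0.425, 0.356 and 0.343 RPKM in input. A430078G23Rik (Arhgef18) stood at 19.8, 21.1 and 16.9 RPKM against 1.119, 1.26 and 1.27 RPKM. 2610507B11Rik had 18.8, 20.3 and 18.4 RPKM against 1.64, 1.24 and 1.27 RPKM. No library of either group overlapped the other in these 3 genes, whose log2 fold changes were 2.62 (SE 0.083), 3.19 (SE 0.113) and 3.08 (SE 0.109). The shared exon of D930007J09Rik limits its value, since all of its 393 nt lie on exon sequence of Wrnip1 on the other strand.

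Opposite-strand transcripts had a median of 276 METTL3-RIP and 27.5 input reads summed over 3 libraries. Itpr3os (chr17:27099658-27101440, minus strand), opposite the gene of an inositol trisphosphate receptor, was the most abundant. It was at 18.6, 24.2 and 21.2 RPKM in METTL3-RIP and at 0.496, 1.02 and 0.856 RPKM in input, with a log2 fold change of 3.64 (SE 0.150, limma adjusted p = 1.50e-07). Of its exon bases 29.3% are shared with the other strand and 19.2% of its 31-base words occur elsewhere in the genome, so its level is uncertain.

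Kdm6bos (chr11:69401513-69402700, plus strand) lies against Kdm6b, the gene of a demethylase of histone H3. It had 12.5, 12.3 and 11.3 RPKM in METTL3-RIP and 0.704, 0.298 and 0.0809 RPKM in input, where it held 9, 4 and 1 reads. METTL3-RIP libraries were close together, while input libraries spread widely. The ratio of means was 33.3 and the log2 fold change 3.28 (SE 0.164, limma adjusted p = 2.87e-07).

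Aknaos (chr4:63381358-63394018, plus strand) shares only 0.543% of its exon bases with the gene on the other strand, Akna, which encodes an AT-hook protein of lymphocytes. It had 9.15, 13.6 and 8.90 RPKM in METTL3-RIP and 0.654, 0.566 and 0.554 RPKM in input, with a log2 fold change of 2.84 (SE 0.156, limma adjusted p = 4.72e-07). Akna was highest in METTL3-RIP replicate 2 as well, at 102 RPKM beside 85.4 and 76.3 RPKM.

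Dhrs13os was at the other end of the class, with 0.175, 0.428 and 0.488 RPKM in METTL3-RIP (4, 10 and 14 reads) and a single read in the 3 input libraries. Its coefficient of variation of 45.7% in METTL3-RIP was the widest of the class. Sap30bpos was similarly scarce, with 16, 10 and 8 METTL3-RIP reads and 0, 2 and 0 input reads, and neither Dhrs13 nor Sap30bp was listed.

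Of the 12 sense genes, 9 were listed. For these pairs the ratios of mean RPKM of member and sense gene are given as a description. Every listed gene with an input read had a ratio of at least 9.14, and their median was 14.4, so near values are not particular to pairs. From the highest sense gene down, the ratios of transcript and gene were 26.97 and 26.5 for Itpr3os and Itpr3, 33.3 and 24.9 for Kdm6bos and Kdm6b, and 22.0 and 17.7 for Tnk2os and Tnk2, a tyrosine kinase gene. Near the middle stood Zfhx2os and Zfhx2 with 14.6 and 15.3, Aknaos and Akna with 17.8 and 15.2, and Bach2os and Bach2, a repressor gene of lymphocyte differentiation, with 13.5 and 13.6. Lowest were Zmiz1os1 and Zmiz1 with 12.5 and 13.0, Galnt6os and Galnt6 with 15.5 and 11.2, and Peak1os and Peak1 with 10.2 and 10.8.

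The transcript had the larger ratio in 5 of the 9 pairs, and the medians were 15.5 for transcripts and 15.2 for sense genes. The level of transcript relative to sense gene overlapped between METTL3-RIP and input libraries in 8 pairs. Tnk2os was the exception, at 0.314 to 0.347 in METTL3-RIP and 0.222 to 0.294 in input. In METTL3-RIP the transcript stood between 0.120 (Aknaos) and 1.23 (Zfhx2os) of its sense gene. The value of Zfhx2os rests on shared sequence, as 95.2% of its exon bases also belong to other genes. A total of 7 of the 12 opposite-strand members shared more than 10% of their exon bases with the other strand, and the part of shared reads in these ratios was not tested. The 2 members with no shared exon base, Sap30bpos and Clnkos, had sense genes that were not listed.

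**Figure D3:**
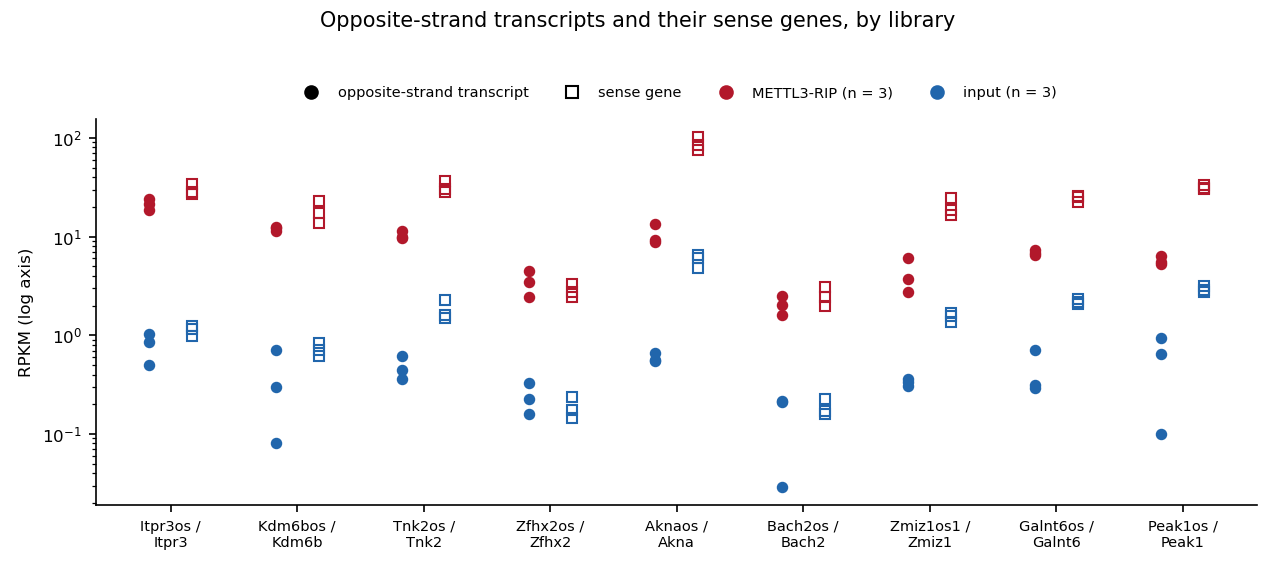
RPKM on a log axis of 9 opposite-strand transcripts (filled circles) and their listed sense genes (open squares) in each METTL3-RIP (red) and input (blue) library, ordered by the ratio of the sense gene. The vertical step from input to METTL3-RIP was near in some pairs (ratios of 26.97 and 26.5 for Itpr3os and Itpr3) and less so in others (33.3 and 24.9 for Kdm6bos and Kdm6b). The input values of Kdm6bos, Bach2os and Peak1os are spread widely.

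Across all classes, 42 of 71 members that overlapped a protein-coding gene on the other strand overlapped a listed one (59.2%), and 10 of 34 on the same strand did so (29.4%). The ratio of the member was larger in 29 of 43 pairs on other strands and in 9 of 9 pairs on the same strand. Median ratios were 17.8 and 13.6 for member and gene on other strands, and 32.0 and 11.1 on the same strand. These pairs share some genes and positions and are a description. Listed TEC and protein-coding genes outside the members also differed in median ratio (22.2 and 13.1), and a part of position was not tested. Ratios of single members rest on few input reads.

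**Figure D4:**
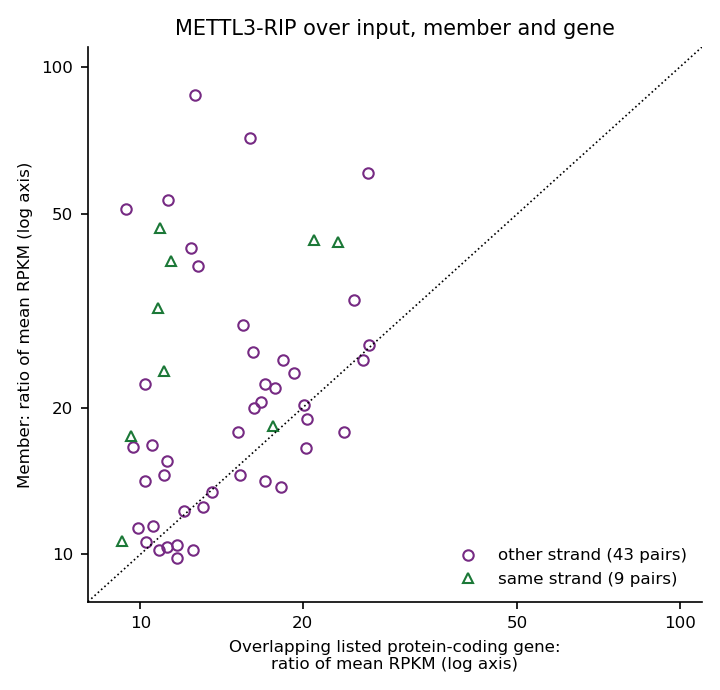
Ratio of mean RPKM (METTL3-RIP over input) of each member against that of the listed protein-coding gene it overlaps, both on log axes, for pairs on other strands (circles, n = 43) and on the same strand (triangles, n = 9), with a dotted line of equal ratios. All 9 triangles lie above the line, as do 29 of the 43 circles.

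The host-gene class held Mir17hg, the long transcript of the miR-17-92 cluster, known for its role in lymphocyte growth and lymphoma. Mir17hg (chr14:115042879-115046727, plus strand) carries 6 microRNA genes. Their main mature forms, from RefSeq on GRCm38.p6, are given here because they fall into 4 seed families, with the seed (bases 2 to 8) in capitals.
miR-17-5p: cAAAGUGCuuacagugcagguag
miR-20a-5p: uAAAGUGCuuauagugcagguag
miR-18a-5p: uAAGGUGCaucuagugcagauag
miR-19a-3p: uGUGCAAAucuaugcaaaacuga
miR-19b-3p: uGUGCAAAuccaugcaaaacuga
miR-92a-3p: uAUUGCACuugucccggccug

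Mir17hg had 0.451, 0.441 and 0.479 RPKM in METTL3-RIP, from 15, 15 and 20 reads, and 0, 0 and 0.0384 RPKM in input, from 0, 0 and 2 reads. METTL3-RIP libraries were close, with a coefficient of variation of 4.27%, and the log2 fold change was 0.52 (SE 0.049, limma adjusted p = 1.15e-05). None of the 6 microRNA genes was a listed gene, and these libraries of long fragments do not measure mature microRNAs.

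A RIKEN member is a microRNA host as well. A330023F24Rik (chr1:194976375-195037904, plus strand) holds Mir29b-2 and Mir29c near its end, whose mature 3p forms share a seed and differ after it.
miR-29b-3p: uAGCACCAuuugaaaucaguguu
miR-29c-3p: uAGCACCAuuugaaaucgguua

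Its level was 1.89, 1.86 and 2.07 RPKM in METTL3-RIP and 0.0281, 0.114 and 0.145 RPKM in input, with a log2 fold change of 1.42 (SE 0.081, limma adjusted p = 5.56e-07). The gene was chosen for the microRNAs it hosts, and 16.1% of its exon bases lie opposite exons of other genes, among them Cd46. Further small RNA genes within RIKEN members are Mir1249 in 5031439G07Rik, a small nuclear RNA in 2410089E03Rik (Cplane1) and small nucleolar and Cajal body RNAs in 2810403A07Rik (Khdc4), none of them listed.

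Snhg4, a host of small nucleolar RNA, was the only host whose small RNA was listed. Snhg4 had 6.98, 3.43 and 5.83 RPKM in METTL3-RIP and 0.296, 0.563 and 0.291 RPKM in input, with a log2 fold change of 2.18 (SE 0.211, limma adjusted p = 1.39e-05). Snora74a, an H/ACA box RNA inside Snhg4, had 148, 71.1 and 119 RPKM in METTL3-RIP and 4.36, 10.2 and 4.16 RPKM in input. In both, replicate 2 was lowest in METTL3-RIP and highest in input.

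The recovered reads of this locus were close in METTL3-RIP and less so in input. Snhg4 held 306, 154 and 321 reads in METTL3-RIP, Snora74a 272, 134 and 275, and AC121821.1 260, 127 and 265. In GENCODE M21 the gene named AC121821.1 shares all 1151 exon bases of Snhg4, but the length recovered here for AC121821.1, 111 nt, is too short to hold them. A microRNA gene, Gm49347 (chr18:35557132-35557242), overlaps Snora74a, and whether the values of AC121821.1 belong to that gene was not tested. Snora74a thus equals 85.7% to 88.9% of the reads of Snhg4 in METTL3-RIP and 60% to 76.2% in input. Read numbers of Snhg4 and AC121821.1 come from the shortest gene lengths that give whole reads, 4666 and 111 nt, which are not those of GENCODE M21, so they are less certain and the gene models of the deposited table may differ. Whether a read within several genes was counted for each is not stated, so the value of Snhg4 cannot be told apart from that of the RNA it hosts.

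**Figure D5:**
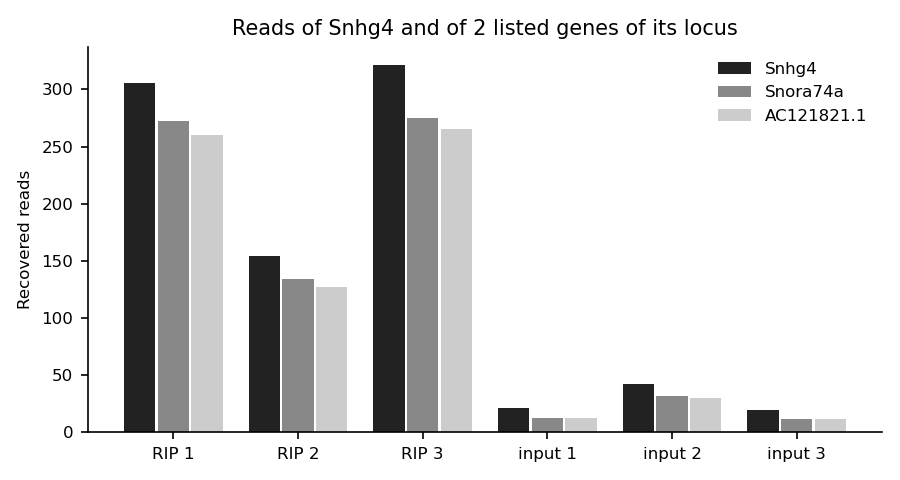
Recovered reads of Snhg4 (black) and of Snora74a and AC121821.1, of the same locus (grey), as bars for each METTL3-RIP and input library. The 3 genes rise and fall together, with 306, 272 and 260 reads in METTL3-RIP replicate 1 and 21, 13 and 13 reads in input replicate 1.

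The 36 clone-named transcripts came from 33 clones, 20 transcripts from RP23 and 16 from RP24. None could be matched to an entry of GENCODE M21 or RefSeq, so their positions, strands, neighbours and sequences are not given here, and whether they share reads with other genes was not tested. RP24-302M13.5 was the most abundant, at 41.2, 42.0 and 36.4 RPKM in METTL3-RIP and 1.99, 1.90 and 0.894 RPKM in input. Its log2 fold change of 4.004 (SE 0.187, limma adjusted p = 2.09e-07) was the highest of all 170 members.

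RP23-431O7.8 had 31.02, 35.2 and 38.4 RPKM in METTL3-RIP and 1.71, 2.60 and 2.48 RPKM in input. RP23-325D10.3 had 19.4, 22.4 and 16.8 RPKM against 1.19, 0.979 and 0.700 RPKM. Their log2 fold changes were 3.46 (SE 0.149, limma adjusted p = 1.64e-07) and 3.39 (SE 0.143, limma adjusted p = 1.56e-07). The groups were far apart in both.

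Among clone-named members with a read in every input library, RP23-243D10.3 and RP24-511J14.2 had the highest ratios, 32.1 and 26.6. RP23-243D10.3 held 15.3, 11.4 and 11.0 RPKM in METTL3-RIP and 0.589, 0.280 and 0.305 RPKM in input. RP24-511J14.2 held 2.26, 1.35 and 2.55 RPKM and 0.0775, 0.0738 and 0.0803 RPKM. Inputs of 2 to 4 reads in each library lie behind both ratios.

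RP23-186B12.3 varied most, with 1.33, 1.20 and 0.264 RPKM in METTL3-RIP (a coefficient of variation of 62.4%) and 0, 0.0557 and 0.121 RPKM in input. Replicate 3 was low and lay 2.18 times above the highest input library. Its log2 fold change was 0.82 (SE 0.215, limma adjusted p = 0.00583).

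Among the name classes, transcripts without any input read were most frequent in the clone-named class. In total 16 members had 0 reads in all 3 input libraries (9.41%, against 6.22% of all listed genes), 8 of the 36 clone-named (22.2%) and 8 of the 120 RIKEN transcripts (6.67%). Of listed genes outside the members, 17.6% of 204 TEC and 14.3% of 112 antisense genes also had no input read. The 16 members held 3 to 48 reads in each METTL3-RIP library. Set against a floor of 3 reads in each input library, the METTL3-RIP level of RP24-531B21.2 was at least 17.6-fold higher and that of RP23-264J18.1 at least 2.64-fold higher. The true lengths of clone-named transcripts are not known. Their reads, and so these 2 bounds, rest on the shortest length that gives whole reads (2555 and 1309 nt) and are less certain. Floors cover counting error at most. Even and odd values were counted only in genes whose annotated length gave whole reads, which leaves out every clone-named member. Of their input values of 1 to 20 reads, 68.8% in 116 members and 79.9% in 2168 listed genes were even. A floor of 3 reads may therefore stand for fewer than 3 independent counts, and the bounds given here may be too high.

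Levels above 10 RPKM in METTL3-RIP were reached by 10 of 120 RIKEN, 4 of 12 opposite-strand and 4 of 36 clone-named transcripts, while 35, 2 and 11 lay below 1 RPKM. The lowest member was C530008M17Rik (Cracd, a regulator of actin capping), with 0.173, 0.135 and 0.275 RPKM in METTL3-RIP and 0.0107, 0.0102 and 0 RPKM in input. It also had the smallest log2 fold change, 0.24 (SE 0.055, limma adjusted p = 0.00250), although its ratio of means was 28.

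In sequence, members were shorter than listed genes in general, with a median of 2751.5 nt of exon against 5587 nt, and 43 of 132 members with a known position consisted of a single exon block. The pentamer GGACT, the core most often methylated by METTL3, was searched on the transcript strand of exons only. It occurred in 108 of 132 members (81.8%), against 90.2% of listed genes, whose exons are longer. Per kilobase the medians were 0.960 for members and 1.02 for all listed genes. A comparison pentamer, AAACT, which cannot overlap GGACT, gave 1.30 and 1.01. AAACT is itself a form of the wider m6A motif DRACH given below, so it is no control free of that motif.

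Windows of 61 bases around the motif, outside exons of protein-coding genes, are shown for members with full values above that hold one (4 abundant RIKEN transcripts and the scarce Mir17hg), as the RNA would be read and with GGACT in capitals (GRCm38). Of consecutive 61-base stretches of member exons, 5.71% hold it.
A130071D04Rik, chr1:138167537-138167597, minus strand: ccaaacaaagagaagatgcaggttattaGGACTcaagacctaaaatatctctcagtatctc
A630072L19Rik, chr12:100947587-100947647, plus strand: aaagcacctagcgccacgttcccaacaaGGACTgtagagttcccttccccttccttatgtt
A630081D01Rik, chr1:80747343-80747403, minus strand: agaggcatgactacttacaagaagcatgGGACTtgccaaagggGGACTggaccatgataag
5330406M23Rik, chr6:31110432-31110492, minus strand: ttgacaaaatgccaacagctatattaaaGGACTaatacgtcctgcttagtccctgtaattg
Mir17hg, chr14:115043625-115043685, plus strand: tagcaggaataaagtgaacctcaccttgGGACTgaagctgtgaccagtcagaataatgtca

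A630081D01Rik and A130071D04Rik each hold 5 copies, at 2.73 and 0.853 per kilobase. A130048G24Rik, Itpr3os, Kdm6bos and Aknaos hold none in their annotated exons. Their log2 fold changes were 2.84 to 3.70, and those of the genes with 5 copies were 3.70 and 3.87. All are on a list of higher genes and were named for their level or ratio, so these values cannot show whether the motif matters. The paper reports a wider motif in m6A peaks, DRACH (D not C, R a purine, H not G), so a gene without GGACT may hold other forms. A match of letters is a description and does not mark a methylated or bound site.

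Of 22 well-known long noncoding RNAs looked up beside the members, 3 were listed. Kcnq1ot1, an imprinted antisense RNA, had 0.547, 0.497 and 0.541 RPKM in METTL3-RIP and 0.0109, 0.0237 and 0.0314 RPKM in input, a level within the lower range of the members. Firre, an X-linked RNA of nuclear organisation, had 0.206, 0.151 and 0.0205 RPKM in METTL3-RIP and was listed at 0 in all input libraries. Gm26917 stood far above any member in METTL3-RIP, at 1448, 1657 and 1487 RPKM, and had 4.34, 4.41 and 5.04 RPKM in input.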

How the data were processed

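RNA of METTL3-RIP (n = 3) and input (n = 3) from splenic NK cells was sequenced with stranded poly(A) libraries (paired ends). Samples were grouped by title. The submitters' processing notes name Trimmomatic 0.36, STAR 2.5.3a and GRCm38. The counter, annotation and use of strand are not given in the sources used here. The authors deposited 1 table of all libraries, whose values were inferred to be RPKM, and 2 columns of their own comparison (a log2 fold change and a p-value), which were not used. The members and lists were chosen with earlier results of these data known.

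Values were tested as log2(RPKM + 1) with limma 3.58.1 (R 4.3.3; lmFit, eBayes with trend, two-sided) over all 2652 genes, after testing on simulated data. With 3 against 3 libraries an exact permutation p cannot fall below 0.1, so none is given for single genes. Reads were recovered from RPKM, exon length and library total. For 116 members the GENCODE M21 length gave whole reads (tolerance 0.005 reads), and for 54 the shortest fitting length was used, so their reads are less certain. Among listed genes whose annotated length gave whole reads, 79.9% of input values of 1 to 20 reads were even. Positions, overlaps and sequences are from GENCODE M21 and RefSeq on GRCm38 for 132 members.

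Named by rule were, in each class, the 3 highest METTL3-RIP levels, the 2 largest ratios with a read in every input and the widest coefficient of variation, and both host genes. Other named genes were chosen after their values were seen.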

Additional observations from a re-analysis of the deposited data

How the results depend on the processing

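All 170 members stayed higher at an adjusted p under 0.05 with pseudocounts of 0.1 and 5, without trend, with the replicate block, with voom on recovered reads and without any single library. A filter of at least 1 RPKM in 3 libraries left 107 members (76 RIKEN, 10 opposite-strand, 20 clone-named and 1 host-gene), all past the threshold, and members with no shared exon base numbered 62 (60 RIKEN and 2 opposite-strand). Centring each library on its median left 131 members past the threshold, 47 higher and 84 lower, with 1 host-gene member among them; since all listed genes were chosen as higher, centring gives positions relative to the list.

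Median log2 fold changes of members, RIKEN, opposite-strand, host-gene, clone-named and all genes were 3.28, 3.21, 3.60, 2.91, 3.49 and 3.23 with a pseudocount of 0.1, 0.46, 0.44, 0.86, 0.53, 0.50 and 0.62 with 5, and 4.29, 4.25, 4.14, 4.35, 4.5 and 3.89 with voom. Centring gave -0.32, -0.39, 0.31, -0.41, -0.27 and -0.036. The filter gave 2.04, 1.88, 2.30, 2.18, 2.29 and 2.13, and members with no shared exon base 1.26 in all and in both classes. Without single libraries the median ran from 1.44 to 1.496 for members and from 1.36 to 1.42 for RIKEN transcripts.

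Single genes were followed only if named by rule or opposite-strand, so other genes named in the text may also have turned or lost their call. Among those followed, centring turned 6030400A10Rik (-0.50), Bach2os (-0.36), Dhrs13os (-1.33), Mir17hg (-1.23), RP23-186B12.3 (-0.94), RP24-511J14.2 (-0.28) and Sap30bpos (-1.23). It took Clnkos (0.23), Peak1os (0.38), Snhg4 (0.42), Zfhx2os (0.07) and Zmiz1os1 (0.14) below the threshold. No other setting changed a direction or a call of the genes followed.

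Same-numbered libraries did not deviate together (r = -0.019, -0.019 and 0.078 over all genes), so the numbers were not taken as pairs. With the replicate block 170 members and 2643 of 2652 genes were past the threshold. Depth limits the ratios, as 10 input reads lie behind the median member.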

Other observations

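Values that belong to no comparison of groups concern how reads were recovered. They were counted in genes whose annotated length gave whole reads, 116 members and 2168 listed genes. Among METTL3-RIP values of 1 to 20 reads, 69.6% were even in these members and 69.6% in these listed genes. In input the shares were 68.8% and 79.9%. In input, a value of exactly 1 read occurred 14 times in these 116 members and a value of 2 reads 49 times.

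More than 20% of 31-base words were found elsewhere in the genome for 6 RIKEN transcripts, among them 5830417I10Rik (90.2%), G530011O06Rik (87.7%) and 1500004A13Rik (74.4%). Reads from these words match several places, how such reads were counted is not stated, and the levels of 5.84, 0.547 and 1.83 RPKM in METTL3-RIP are uncertain. 5830417I10Rik and 1500004A13Rik also overlap each other on opposite strands over 2897 exon bases.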
